A study of Rattus norvegicus with 23 samples.

Results

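The genes of insulin, PI3K, AKT and mTOR signaling were examined in the hearts of newborn rats exposed in utero to maternal diabetes, high-fat (HF) diet or both. The set was a fixed list of 39 genes, chosen by function, and a member was measured when the array annotation gave a probe set that single gene symbol. Of the 39 genes, 33 were measured among 14506 genes in all, and no probe set carried the single symbol of Irs2, Pik3ca, Pik3cg, Tbc1d4, Rictor or Deptor. Insr and Grb2 had 2 probe sets each, which were averaged within each heart, and the other members had 1.

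Sprague Dawley dams were kept on control or HF diet from 28 days or more ahead of mating until delivery. On gestational day 14 they were injected with citrate buffer or with 65 mg/kg streptozotocin, which destroys pancreatic beta cells. Whole hearts of the offspring were collected on postnatal day 1, and each heart was measured on 1 Affymetrix Rat Gene 1.0 ST array. There were 7 control hearts (control diet and buffer), 6 diabetes exposed hearts (control diet and streptozotocin), 5 HF diet exposed hearts (HF diet and buffer) and 5 combination exposed hearts (HF diet and streptozotocin). As limits of the model, diabetic dams were given insulin, which held their hyperglycemia only in part, so their offspring were exposed to a treated diabetes. Pups of both sexes were used together, and the labels do not state which heart was of which sex.

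Insulin and insulin-like growth factors bind receptor tyrosine kinases, which recruit adaptor proteins and the lipid kinase PI3K. The lipid that PI3K makes brings the kinase AKT to the membrane, where PDPK1 and mTOR complex 2 activate it, and AKT in turn restrains GSK3, the FOXO transcription factors and the TSC1-TSC2 complex, which frees RHEB to activate mTOR complex 1 and protein synthesis. In the heart this cascade is known for glucose uptake, for growth and for survival of cardiomyocytes, and much of its regulation is by phosphorylation, which an array of RNA does not read.

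Sequence before the RefSeq start of 5 members is shown because 2 of them carried the calls described here (Insr, Irs1) and the other 3 (Mtor, Rheb, Eif4e) were among the members with the smallest p in the combination exposed hearts. RefSeq promoter sequence of build GRCr8 was found for 32 of the 39 members, of which 28 were measured. The 250 bases before the start were searched on both strands for a FOXO motif (GTAAACA), an E-box (CACGTG), a cAMP response element (TGACGTCA) and a GC box (GGGCGG), and matches are in capitals below. For Irs1, at chr9:91053960-91054209 on the minus strand, and Mtor, at chr5:164167735-164167984 on the plus strand, the whole stretch lay outside the gene and is shown. For Insr (minus strand, chr12:6128887-6128913), Rheb (plus strand, chr4:11013287-11013312) and Eif4e (plus strand, chr2:229740663-229740688) the stretch lay within the bounds of the annotated gene, and 1 motif of each is shown with 10 bases on either side: the FOXO motif of Insr, the E-box of Rheb and, of the 2 E-boxes of Eif4e, the one nearer the start. Rheb also held a GC box 43 bases before its start, which is not shown.
Insr: cgggccgcgtTGTTTACtggccggagt
Irs1: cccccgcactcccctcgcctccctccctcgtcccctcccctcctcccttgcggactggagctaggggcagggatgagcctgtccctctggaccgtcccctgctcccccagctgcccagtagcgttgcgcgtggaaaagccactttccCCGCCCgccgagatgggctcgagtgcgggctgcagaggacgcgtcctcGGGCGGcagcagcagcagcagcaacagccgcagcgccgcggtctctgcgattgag
Mtor: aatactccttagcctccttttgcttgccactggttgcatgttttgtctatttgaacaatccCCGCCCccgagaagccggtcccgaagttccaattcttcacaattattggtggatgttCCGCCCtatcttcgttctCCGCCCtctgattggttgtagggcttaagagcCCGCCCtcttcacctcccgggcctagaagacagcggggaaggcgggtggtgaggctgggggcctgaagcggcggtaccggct
Rheb: cgcgcgcggtCACGTGggtgtgttgt
Eif4e: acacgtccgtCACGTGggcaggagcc
The stretch of Insr, the insulin receptor gene, held a FOXO motif 100 bases before the start. A FOXO motif was also found for Akt1s1, Phlpp1 and Pik3ca, so 4 of 32 members (12.5%) had one, beside 3.25% of the 27457 promoters in the table. An E-box was present in 5 members (15.6%), Akt1s1, Eif4e, Gsk3b, Igf1r and Rheb, beside 5.79% of all promoters. GC boxes were present in 18 members (56.2%), with 4 of them before Mtor and 2 before Irs1, beside 32.4% of all promoters. No member had the cAMP response element in this window, beside 1.70% of all promoters. These matches describe letters only, and the members were richer in G and C than all promoters (median 59.6% and 52%).

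Values were deposited as log2 distances from the median of each probe set over the 23 hearts, so differences between groups can be read, but the level of a gene cannot, and genes cannot be ranked by level. For the same reason the presence of cardiomyocyte markers could be checked only by differences, and the mean of 14 such genes lay between -0.22 and 0.09 in all hearts. Control heart 1 stood apart, with a mean of 3.89 over 6 thymus and T cell genes and of 4.07 over 5 lung genes, where no other heart exceeded 0.27 and 1.19. Combination heart 1 stood apart in the spread of its array, the widest of the 23 with an SD of 0.393 over all probe sets. Its mean over 14 chromatin regulators with long transcripts (Kmt2d, Arid1a and similar genes) was -0.74, the lowest of all hearts. The hearts carried 19 code stems in their labels, with 3 stems each among the 5 HF diet and the 5 combination exposed hearts. Whether a shared stem means a shared litter is not stated, so the p-values given here reflect only the spread among the 23 hearts, which may include littermates, and the number of arrays limits the precision. In whole hearts, fewer cells of a type and less RNA per cell cannot be told apart.

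The first question was whether exposure to both diabetes and HF diet changed these genes. A member was called when its difference exceeded 0.32 on the log2 scale in either direction, the fold limit of the study's methods, with an unadjusted limma p below 0.05. Against control, none of the 33 members was called in the combination exposed hearts, while 2.59% of all genes were called higher and 1.07% lower. The members' differences were small and mostly negative, 25 of 33 lying below 0 (75.8%, beside 48.7% of all genes), with a median of -0.12 beside 0.00 over all genes. Without a fold limit 4 members had p below 0.05, Eif4ebp1, Eif4e and Rheb on the higher side and Mtor on the lower side. These 4 are 12.1% of the members, near the 10.7% of all genes that had p below 0.05. A two-sided exact permutation test over the hearts, run for each member on its own, also gave 4 with p below 0.05, but these were Eif4ebp1, Eif4e, Tsc2 and Pik3c3. The share of all genes that pass this test was not computed, so this count has no background beside it. No member and no gene of the array had an adjusted p below 0.45 (Benjamini-Hochberg over 14506 genes). Without combination heart 1 the median of the members was -0.03.

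**Figure D1:**
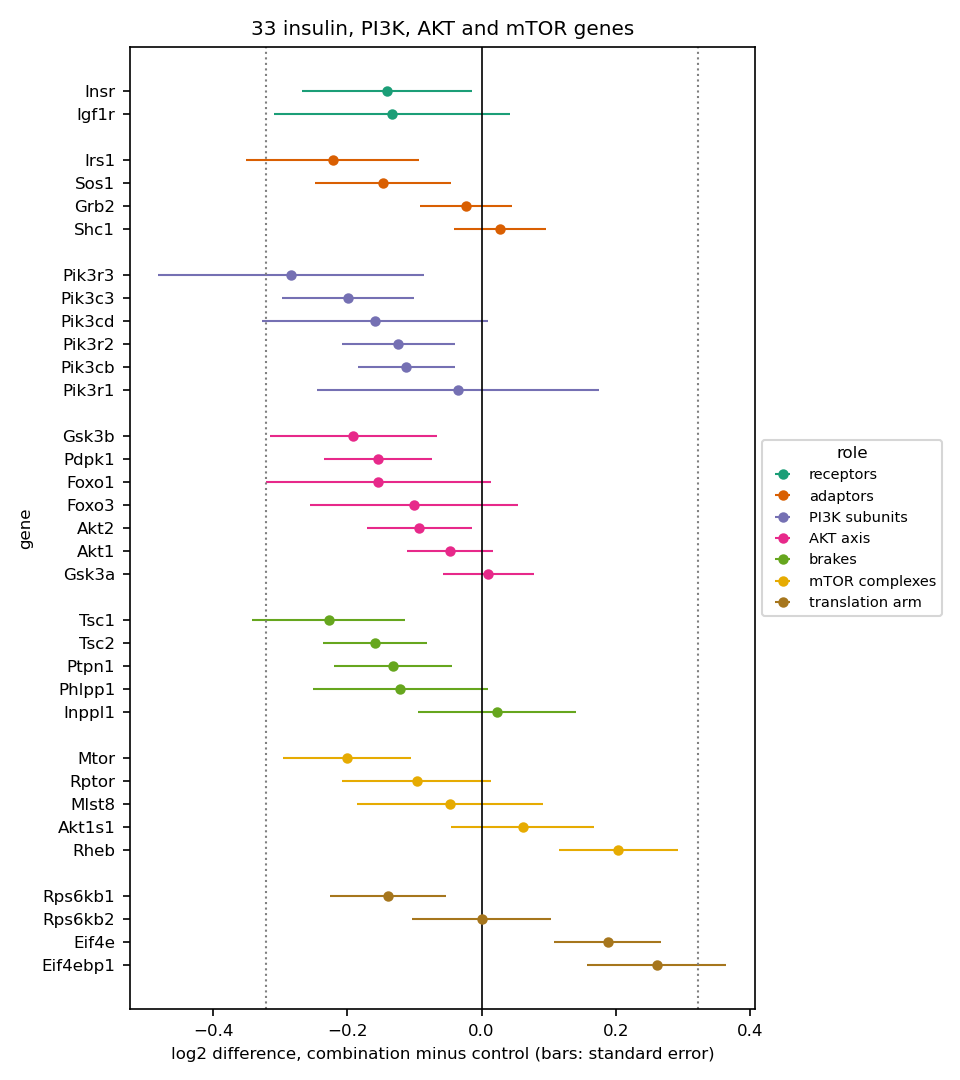
Log2 difference between combination exposed (n = 5) and control hearts (n = 7) for the 33 measured genes, ordered by role, with the standard error of the limma fit as bars and the fold limit of 0.32 as dotted lines. Both receptors and all 6 PI3K subunits lie left of 0, Eif4ebp1, Eif4e and Rheb lie farthest to the right, and no point lies beyond the dotted lines.

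The receptors are Insr, which binds insulin, and Igf1r, which binds the insulin-like growth factors. Insr in the 5 combination exposed hearts was at -0.69, -0.07, 0.10, -0.05 and -0.20. The HF diet exposed hearts were at 0.03, -0.03, 0.21, 0.20 and 0.18, while controls ran from -0.26 over a median of -0.07 to 0.33 and diabetes exposed hearts from -0.25 over 0.05 to 0.36. The groups overlapped in every pair, and combination heart 1 was the lowest of the 23. Insr was the only member called for the interaction, the combination effect beyond the sum of the effects of diabetes alone and HF diet alone, at -0.40 (SE 0.18, limma adjusted p = 0.69). Against control its difference was 0.10 with diabetes, 0.16 with HF diet and -0.14 with both. In the interaction 1.88% of all genes were called higher and 2.08% lower, so 1 of 33 members is near that background. The call was lost without combination heart 1 (-0.27). It was also lost without combination heart 5 (-0.40), HF diet heart 3 (-0.38), 4 (-0.38) or 5 (-0.39), control heart 2 (-0.37), 3 (-0.37) or 5 (-0.36), or diabetes heart 3 (-0.34), 4 (-0.39) or 6 (-0.36), each short of the p limit. Both Insr probe sets gave a negative interaction, -0.47 and -0.33, and they correlated over the 23 hearts at 0.859.

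Igf1r varied more than Insr, with a within-group SD of 0.32 beside 0.23. The combination exposed hearts were at -0.55, -0.02, 0.24, -0.18 and -0.17 and the HF diet exposed hearts at 0.11, -0.13, 0.42, 0.40 and 0.24. Controls ran from -0.44 to 0.45 and diabetes exposed hearts from -0.33 to 0.64, so all groups overlapped. Its interaction was -0.41, of the size of that of Insr, but with a wider standard error of 0.25, and it was not called. Between combination and HF diet exposed hearts Igf1r differed by -0.34 (exact permutation p = 0.0714). That difference passed the fold limit but not the limma p limit, so it was not called either.

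Adaptors carry the signal from the receptors, and Irs1, the docking protein that insulin receptors phosphorylate, was the only measured member called in any pairwise comparison. Irs1 in the combination exposed hearts was at -0.32, -0.32, 0.26, -0.11 and -0.26. Diabetes exposed hearts ran from -0.11 over a median of 0.21 to 0.54, HF diet exposed hearts were at 0.03, -0.19, -0.02, 0.07 and 0.08, and controls ran from -0.28 over 0.00 to 0.45. The combination and diabetes groups overlapped, and combination heart 3 lay above the diabetes median. Irs1 fell by 0.34 in combination against diabetes exposed hearts (SE 0.13, limma adjusted p = 0.522), while 1.85% of all genes were called higher in that comparison and 1.00% lower. An exact permutation test of the same difference gave p = 0.0584, which misses the limit that the limma p met. The call was lost without combination heart 1 (-0.29), 2 (-0.29) or 5 (-0.31) and without diabetes heart 3 (-0.27) or 6 (-0.30), while without combination heart 3 Irs1 was at -0.44 and Foxo1 passed as well at -0.42. Against control, Irs1 in the combination exposed hearts was at -0.22 (SE 0.13, exact permutation p = 0.178), and leaving out combination heart 3 moved this to -0.32, past the fold limit.

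**Figure D2:**
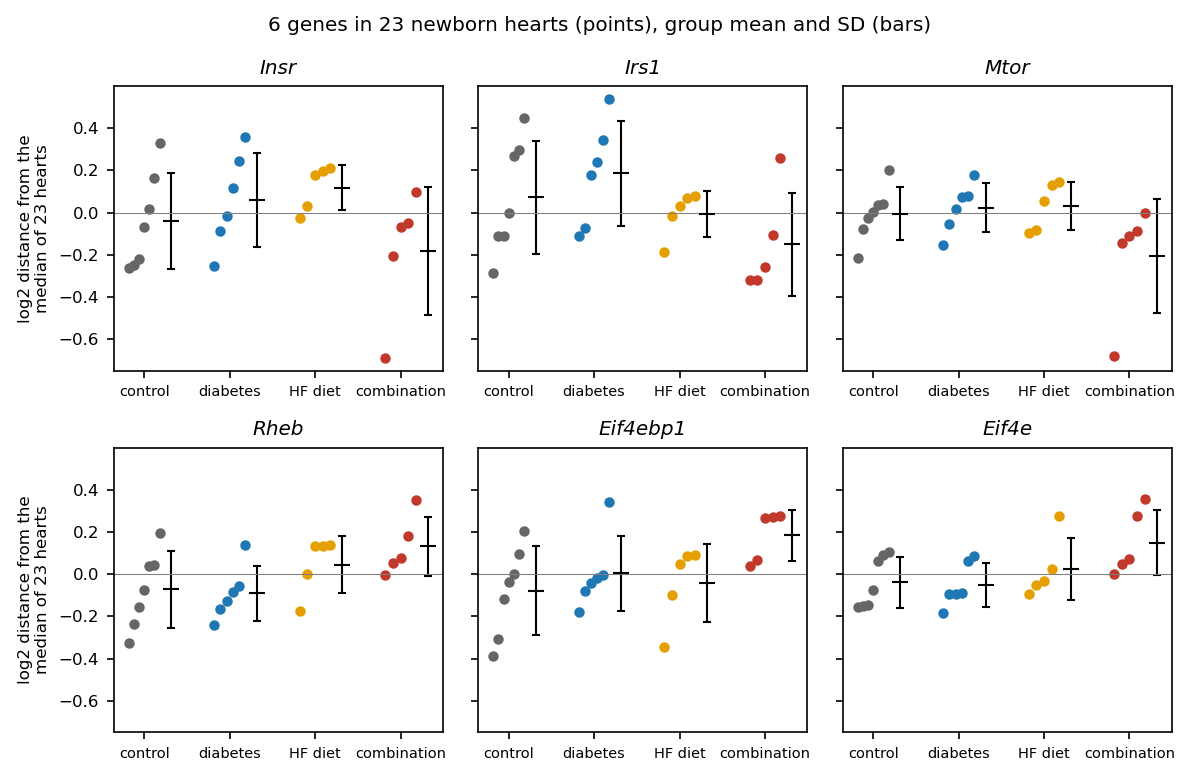
Values of 6 genes in each heart (points, log2 distance from the median of the 23 hearts) for 7 control, 6 diabetes, 5 HF diet and 5 combination exposed hearts, with the group mean and SD at the right of each group. In the Insr and Mtor panels combination heart 1 is the lowest point at -0.69 and -0.68, in the Irs1 panel combination heart 3 stands above its group at 0.26, and every group overlaps the others.

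Shc1, an adaptor that links receptors to the RAS pathway, had the smallest p of the members in both comparisons of a single exposure with control. Shc1 was at -0.07, 0.00, 0.22, 0.07 and 0.17 in HF diet exposed hearts and ran from -0.03 over 0.02 to 0.19 in diabetes exposed hearts. Controls ran from -0.25 over -0.06 to 0.07, and the combination exposed hearts were at -0.16, 0.00, 0.10, -0.09 and -0.01. The difference from control was 0.14 with HF diet (SE 0.07, exact permutation p = 0.0619) and 0.12 with diabetes (SE 0.07, exact permutation p = 0.0559), but 0.03 with both. This gave an interaction of -0.23 (SE 0.10, limma adjusted p = 0.69), short of the fold limit. Grb2, which couples receptors to SOS1, lay within 0.05 of control in all 3 exposed groups, and its 2 probe sets correlated at only 0.279. Sos1, the exchange factor that activates RAS, was at -0.15 in the combination exposed hearts against control (exact permutation p = 0.205). Against diabetes its difference was -0.20 (exact permutation p = 0.0411), short of the fold limit.

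All 6 measured PI3K subunits had negative differences between combination exposed and control hearts, from -0.04 for Pik3r1 to -0.28 for Pik3r3, both regulatory subunits, with the regulatory subunit Pik3r2 at -0.12, and none was called. Pik3cb, the beta catalytic subunit, showed the smallest p of the 33 members against HF diet. Its values were 0.04, -0.22, -0.10, -0.02 and -0.10 in combination exposed and 0.08, -0.06, 0.30, 0.16 and 0.17 in HF diet exposed hearts, where only the second HF diet heart lay at or below 0. The difference was -0.21 (SE 0.08, exact permutation p = 0.0238, limma adjusted p = 0.346) and stayed short of the fold limit. It was -0.24 without combination heart 1. Pik3c3, the class III kinase of endosomes and autophagy, was at -0.20 against control (SE 0.10, exact permutation p = 0.048, limma adjusted p = 0.467), and at -0.13 without combination heart 3.

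The negative difference of Pik3cd, the catalytic subunit most abundant in leukocytes, rested on 1 control heart. Pik3cd was at 1.35 in control heart 1, the heart with high thymus and lung genes, and between -0.19 and 0.13 in the other 22 hearts. Pik3r1 and Pik3r3 were the most variable members, with within-group SDs of 0.39 and 0.37, above those of 96.3% and 95.3% of all genes. Pik3r1 passed 0.60 in 5 hearts drawn from all 4 groups, among them control heart 1 at 0.69, control heart 6 at 0.61, diabetes heart 6 at 0.70, HF diet heart 4 at 0.77 and combination heart 3 at 0.62.

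Akt1, Gsk3a, Akt2 and Pdpk1 were among the less variable genes, with within-group SDs of 0.10 to 0.13, while Gsk3b (0.22), Foxo3 (0.28) and Foxo1 (0.31) were among the more variable. Akt1 had the smallest within-group SD of all members, 0.10, at the percentile 4.74 of all genes, and its combination exposed hearts were at -0.21, 0.00, 0.10, -0.04 and 0.04. Akt1 differed from control by -0.05 (SE 0.06, exact permutation p = 0.453). Akt2, the isoform that dominates insulin-stimulated glucose uptake, was at -0.34, 0.04, 0.21, -0.14 and 0.00 in combination exposed hearts and ran from -0.01 over 0.02 to 0.15 in controls. Akt2 differed from control by -0.09 with both exposures, by -0.08 with diabetes and by -0.07 with HF diet, with exact permutation p of 0.303, 0.131 and 0.222. Its spread was wider in the combination exposed hearts, with an SD of 0.21 beside 0.06 in controls, a difference in spread that was not tested.

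Gsk3b, a kinase that AKT inhibits, was at -0.80, -0.24, 0.04, -0.05 and -0.11 in combination exposed hearts and at 0.08, -0.03, 0.13, 0.00 and 0.16 in HF diet exposed hearts. Controls ran from -0.40 over 0.04 to 0.14 and diabetes exposed hearts from -0.34 over -0.03 to 0.27. The Gsk3b difference was -0.30 against HF diet (SE 0.13, exact permutation p = 0.0317), short of the fold limit, and -0.19 against control (SE 0.13, exact permutation p = 0.246). Without combination heart 1 these were -0.16 and -0.05. Its paralog Gsk3a differed from control by 0.01. Foxo1, the transcription factor that AKT keeps out of the nucleus, had the most negative interaction of the members, -0.44 (SE 0.24, limma adjusted p = 0.69), and Foxo3 was at -0.18. Pdpk1, which phosphorylates AKT, differed from control by -0.16 (SE 0.08, exact permutation p = 0.0846).

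Among the brakes, Tsc1 and Tsc2, whose complex turns off RHEB, were both lower in the combination exposed hearts without being called. Tsc2 was at -0.53, -0.09, -0.05, 0.00 and -0.04 in combination exposed hearts and ran from -0.07 over -0.01 to 0.15 in controls. The differences of Tsc2 were -0.16 against control (SE 0.08, exact permutation p = 0.0215) and -0.20 against HF diet (SE 0.08, exact permutation p = 0.0238, limma adjusted p = 0.348). Without combination heart 1 they were -0.06 and -0.10. Tsc1 was at -0.32, 0.13, -0.59, -0.03 and -0.14, and differed from control by -0.23 (SE 0.11, exact permutation p = 0.116), or by -0.13 without combination heart 3. The phosphatases Ptpn1, which acts on the insulin receptor, and Phlpp1, which acts on AKT, were at -0.13 and -0.12, and Inppl1, a lipid phosphatase, at 0.02.

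Mtor, the kinase at the core of both mTOR complexes, was at -0.68, -0.09, -0.15, 0.00 and -0.11 in combination exposed hearts. Controls ran from -0.22 over 0.00 to 0.20, diabetes exposed hearts from -0.15 over 0.05 to 0.18, and HF diet exposed hearts were at 0.15, -0.08, 0.13, -0.10 and 0.06. No combination exposed heart lay above 0, but only combination heart 1 lay outside the range of the controls. The difference was -0.20 against control (SE 0.10, exact permutation p = 0.0783), -0.23 against diabetes (exact permutation p = 0.039) and -0.24 against HF diet (exact permutation p = 0.0556), all short of the fold limit. Without combination heart 1 the differences of Mtor were -0.08, -0.11 and -0.12. Rptor, the scaffold of mTOR complex 1, was at -0.66 in the same heart and between -0.05 and 0.02 in the other 4 combination exposed hearts. Mlst8, a subunit of both complexes, and Akt1s1, an inhibitor of complex 1 that AKT phosphorylates, differed from control by -0.05 and 0.06.

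Rheb, the GTPase that activates mTOR complex 1, went the other way from Mtor. The combination exposed hearts were at 0.35, 0.08, 0.18, 0.00 and 0.05, controls ran from -0.33 over -0.07 to 0.20, diabetes exposed hearts from -0.24 over -0.11 to 0.14, and HF diet exposed hearts were at -0.18, 0.14, 0.00, 0.13 and 0.13. The difference was 0.20 against control (SE 0.09, exact permutation p = 0.0644) and 0.22 against diabetes (SE 0.09, exact permutation p = 0.026, limma adjusted p = 0.522). It was 0.15 against control without combination heart 1.

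The translation arm held the member with the smallest limma p against control. Eif4ebp1, the repressor of cap-dependent translation that mTOR complex 1 switches off, was at 0.27, 0.28, 0.27, 0.04 and 0.07 in combination exposed hearts. Controls ran from -0.39 over -0.04 to 0.20, diabetes exposed hearts from -0.18 over -0.03 to 0.34, and HF diet exposed hearts were at -0.10, 0.09, -0.34, 0.09 and 0.05. Of the combination exposed hearts 3 lay above every control, and the other 2 lay within the control range. The difference from control was 0.26 (SE 0.10, exact permutation p = 0.029, limma adjusted p = 0.45), a fold change of 1.20, and it stayed between 0.21 and 0.31 when any 1 heart of the 2 groups was left out.

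Eif4e, the cap-binding protein that Eif4ebp1 holds, was at 0.36, 0.27, 0.07, 0.05 and 0.00 in combination exposed hearts and ran from -0.16 over -0.07 to 0.10 in controls. Its difference was 0.19 against control (SE 0.08, exact permutation p = 0.0391) and 0.20 against diabetes (SE 0.08, exact permutation p = 0.0303). The ribosomal protein S6 kinases did not share this direction. Rps6kb1 was at -0.09, -0.28, -0.30, 0.08 and 0.05 in combination exposed hearts, -0.14 from control and -0.22 from HF diet (SE 0.09, exact permutation p = 0.0794, limma adjusted p = 0.35), and Rps6kb2 differed from control by 0.00.

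With diabetes alone or HF diet alone the differences of the 33 members from control were small. None was called with diabetes, where 0.138% of all genes were called higher and 0.0483% lower, and none with HF diet, where the shares were 0.234% and 0.262%. In both comparisons none of 33 is near the background. The members' median difference was 0.01 with diabetes and 0.04 with HF diet, and single members ran from -0.16 to 0.13 and from -0.17 to 0.21. Neither comparison had a member with p below 0.05 in limma, beside 1.34% of all genes with diabetes and 2.34% with HF diet. No member had an exact permutation p below 0.05 either. Diabetes against HF diet had no called member either, beside 0.248% of genes called higher and 0.145% lower.

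Between combination and HF diet exposed hearts no measured member was called, beside 3.43% of all genes called higher and 2.08% lower. Pik3ca, which had no single-symbol probe set here, is among the genes that the study lists as lower in this comparison. Without a fold limit 6 measured members had p below 0.05, all lower: Pik3cb, Tsc2, Rps6kb1, Mtor, Gsk3b and Insr. They are 18.2% of the members, while 6.98% of all genes were lower and 7% higher at this p. Without combination heart 1 the differences of Insr, Gsk3b, Tsc2 and Mtor from HF diet were -0.17, -0.16, -0.10 and -0.12. Of the 6 members, 4 also had an exact permutation p below 0.05, Pik3cb, Tsc2, Gsk3b and Insr, with no share over all genes computed for that test. In combination against diabetes the exact test gave 4 members as well, Sos1, Rheb, Mtor and Eif4e, again with no such share. Against diabetes 28 of 33 members lay below 0 with a median of -0.09, and against HF diet 25 of 33 with a median of -0.10, beside 0.01 and 0.00 over all genes. These comparisons share the 5 combination exposed hearts and are not separate evidence. No member had groups that failed to overlap in any of the 6 pairwise comparisons, beside 1.68% of all genes in combination against HF diet and 0.0207% to 0.269% in the other 5, so none of 33 is near the background.

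**Figure D3:**
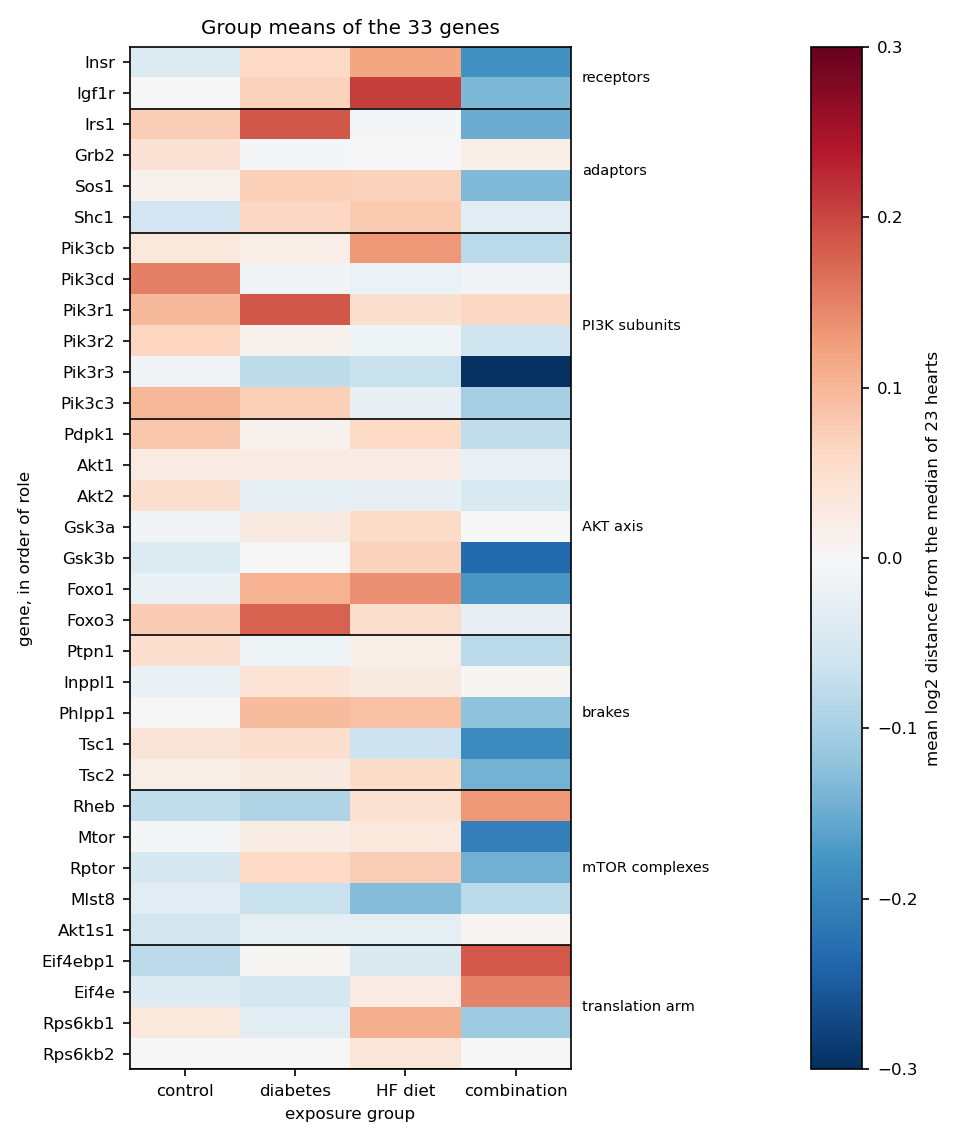
Mean log2 distance from the median of the 23 hearts for the 33 genes (rows, by role) in the 4 groups (columns), red above and blue below 0. The combination column is blue for most rows, deepest for Pik3r3 (-0.30), Gsk3b (-0.23) and Mtor (-0.20), and red for Eif4ebp1 (0.18), Eif4e (0.15) and Rheb (0.13).

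The members did not vary independently of each other among the hearts. Mtor, Gsk3b and Tsc2 followed the mean of the 14 long-transcript chromatin genes, a list taken from an earlier analysis in which it moved between groups. That mean was 0.03 in control (range -0.31 to 0.32), 0.03 in diabetes (range -0.36 to 0.29), 0.08 in HF diet (range -0.09 to 0.22) and -0.28 in combination exposed hearts (range -0.74 to 0.00), and 6 of its 14 genes were called lower against control. Over the 23 hearts Pearson's r with this mean was 0.92 for Mtor (Spearman's rho 0.92), 0.90 for Gsk3b (rho 0.85) and 0.83 for Tsc2 (rho 0.79), each at a permutation p of 1e-05, the smallest that 100000 permutations can give. Eif4ebp1 and Rheb ran the opposite way, with r of -0.83 (rho -0.89) and -0.84 (rho -0.84) at the same permutation p.

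With Benjamini-Hochberg adjustment over 14492 genes, 13 members passed an adjusted permutation p of 0.05 with positive r, beside 14.2% of all genes. Among them were Insr (r = 0.77, rho = 0.65), Pdpk1 (r = 0.76, rho = 0.71), Sos1 (r = 0.75, rho = 0.73), Igf1r (r = 0.69, rho = 0.64) and Irs1 (r = 0.61, rho = 0.62). In the negative direction 4 members passed, beside 20.7% of all genes, and Eif4e (r = -0.67, rho = -0.63) and Akt1s1 (r = -0.63, rho = -0.70) were the other two. Without combination heart 1 and diabetes heart 5, the hearts farthest from the median of the list, r was 0.88 for Mtor, 0.81 for Gsk3b, -0.84 for Eif4ebp1 and -0.78 for Rheb, and no member that passed turned its sign. The relation held within the groups too, with r of 0.88, 0.89, -0.79 and -0.88 once each group's mean was taken off. Akt1 (r = -0.05) and Akt2 (r = 0.04) had r near 0 over all hearts, but without those 2 hearts they were at -0.52 and -0.51.

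**Figure D4:**
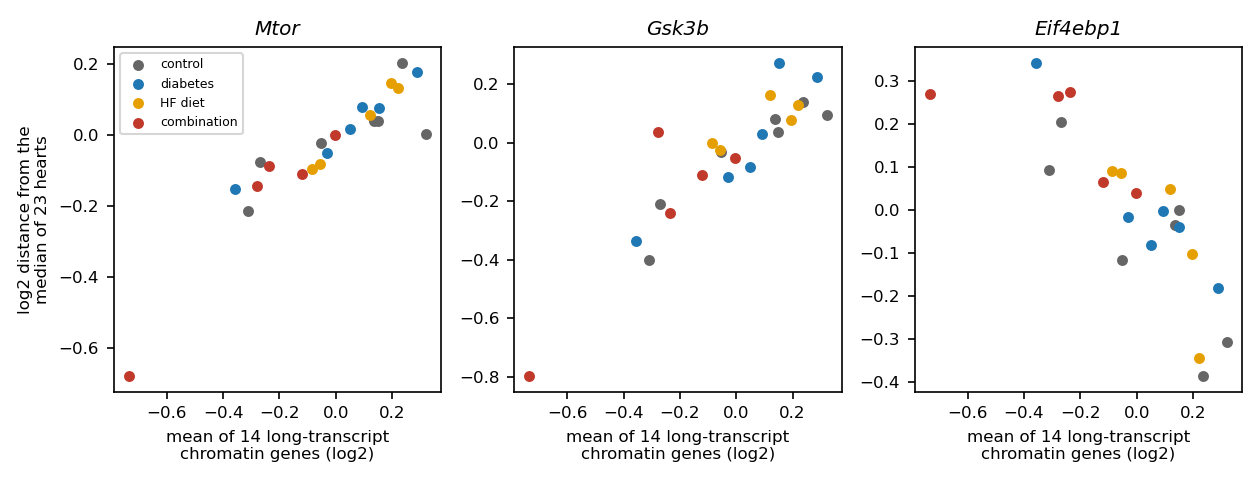
Values of Mtor, Gsk3b and Eif4ebp1 (vertical axis, log2) against the mean of 14 long-transcript chromatin genes (horizontal axis, log2) in the 23 hearts, coloured by group. Mtor and Gsk3b rise with the list (r = 0.92 and 0.90) and Eif4ebp1 declines (r = -0.83), in hearts of all 4 groups, with combination heart 1 at the far left.

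The group differences changed when this list was added to the fit. The list mean itself differed between the groups, so the fit also takes off group difference that the list carries. Whether the list accounts for the members' differences was not tested, and the shift over all genes was not computed. With the list mean as a covariate in limma the median difference of the members between combination exposed and control hearts was -0.01 in place of -0.12. Single values became -0.01 for Mtor, 0.07 for Eif4ebp1, 0.03 for Rheb and 0.09 for Eif4e, and those of Insr, Igf1r and Gsk3b turned positive at 0.08, 0.15 and 0.07. The interaction of Insr was then -0.14 and the difference of Irs1 from diabetes -0.16, and neither was called. Erythroid markers also differed, with a mean over 11 genes of -0.14 in control (range -0.57 to 0.23), 0.19 in diabetes (range -0.05 to 0.58), -0.12 in HF diet (range -0.34 to 0.07) and 0.22 in combination exposed hearts (range -0.34 to 0.98), and 1 of 11 was called higher in combination against control. With the erythroid mean as a covariate the members' median was -0.13, as large as without it, while the difference of Eif4ebp1 was 0.17. The mean of 5 adipocyte markers differed by -0.48 and that of 9 fibroblast markers by -0.14, with none of these genes called, and their part in the members' differences was not tested.

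Beyond the members, 71 further genes of the pathway were measured, and against control 2 of them (2.82%) were called higher and 1 (1.41%) lower in the combination exposed hearts, near the 2.59% and 1.07% of all genes. Hk2, the hexokinase that traps glucose in insulin-responsive muscle, was at 1.07, 2.25, 1.78, -0.15 and -0.03 in combination exposed hearts and ran from -0.37 over -0.15 to 1.38 in controls. It was higher in the combination exposed group by 0.94 (SE 0.45, exact permutation p = 0.109, limma adjusted p = 0.464), and hearts above 1.00 occurred in all 4 groups. Without combination heart 2 the difference of Hk2 was 0.62. Trib3, a pseudokinase that binds AKT, was at 0.14, 1.35, 0.33, -0.07 and -0.06, ran from -0.46 over -0.07 to 0.24 in controls, and differed by 0.41 (SE 0.19, exact permutation p = 0.0833, limma adjusted p = 0.464). Without combination heart 2 the difference of Trib3 was 0.16, short of the fold limit. Sesn3, a sestrin that restrains mTOR complex 1, was at -0.74, -0.51, -0.55, -0.04 and 0.04 and ran from -0.20 over 0.00 to 0.31 in controls. Sesn3 fell by 0.42 (SE 0.13, exact permutation p = 0.0278, limma adjusted p = 0.45), and was called lower against diabetes and HF diet as well, at -0.43 and -0.41.

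The ligand genes were not called in this comparison, with Igf1 at -0.27 (exact permutation p = 0.0631), Igf2 at -0.11, Ins1 at -0.13 and Ins2 at -0.02. With HF diet alone Pik3ip1, an inhibitor of PI3K, was the only one of the 71 called (1.41%, beside 0.262% of all genes called lower). It fell by 0.60 (SE 0.21, exact permutation p = 0.0278, limma adjusted p = 1.0). Pik3ip1 was at -0.53, -0.14, -0.78, -0.52 and -0.21 in HF diet exposed hearts and ran from -0.58 to 0.96 in controls. Fgfr2, a growth factor receptor that the study ties to PI3K, is no member of the list. It was at -0.74, -0.45, -0.33, -0.24 and -0.15 in combination exposed hearts and ran from -0.21 over 0.00 to 0.61 in controls. Fgfr2 fell by 0.47 against control (SE 0.14, exact permutation p = 0.00505, limma adjusted p = 0.45), a larger difference than that of any of the 33 members. Part of it rested on control heart 1, the heart with high thymus and lung genes. That heart held the control value of 0.61, while no other control exceeded 0.22.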

How the data were processed

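The authors measured RNA of 23 hearts on Affymetrix Rat Gene 1.0 ST arrays and normalized them with GeneSpring GX. They deposited log2 values of 29170 probe sets, and the median of each probe set over all hearts was set to 0. Which normalization algorithm was used is not stated. The centring removes levels, so no filter on dim probe sets, background correction or slide block could be applied.

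The deposited values were used as they are. Genes were named from the probe sets with a single symbol in the array annotation (15310 probe sets, 14506 genes), and the probe sets of a gene were averaged per heart. All genes and hearts were fitted in 1 model with limma 3.58.1 (R 4.3.3, lmFit and eBayes, 1 mean per group), from which 6 pairwise differences and the interaction were taken. Permutations, motif counts and figures used Python 3.11.15, numpy 2.4.6, scipy 1.17.1, pandas 2.3.3 and matplotlib 3.10.9. Benjamini-Hochberg adjustment ran over all genes, also for the permutation p of the correlations. Two-sided exact permutation tests of single differences (all arrangements of the hearts of 2 groups) were added after the data were seen, because groups held under 10 hearts, and define no call. The functions were tested on simulated data.

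Values are given for members called in a contrast, for the 3 with the smallest p in each, for Insr, Igf1r, Irs1, Akt1, Akt2, Gsk3b and Mtor, and for further members of each role, which were added after their values were seen. The other pathway genes described are Fgfr2, those called in combination against control, and, chosen after their values were seen, the ligands and Pik3ip1. The members, lists and tests were chosen with earlier results of these data known.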

Additional observations from a re-analysis of the deposited data

Results flagged for a closer look

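Outlying hearts were looked for in 132 groups, the 4 groups of each of the 33 members, and 10 were found where the gap to the nearest heart was large beside the range of the group. Chance alone would flag about 1 in 20 groups. Combination heart 1 was lowest for Mtor (-0.68, nearest heart -0.15), Rptor (-0.66, nearest -0.05) and Tsc2 (-0.53, nearest -0.09). Control heart 1 was highest for Pik3cd (1.35, nearest 0.06), the heart in which thymus and lung genes were high. Diabetes heart 6 was highest for Sos1 (0.30, nearest 0.08) and Pik3c3 (0.46, nearest 0.10). Diabetes heart 5 was highest for Eif4ebp1 (0.34, nearest 0.00), and diabetes heart 2 was lowest for Pik3cd (-0.14, nearest 0.00). HF diet heart 4 was lowest for Pik3r3 (-0.63, nearest 0.00), and combination heart 3 was lowest for Mlst8 (-0.60, nearest 0.00). The effect of diabetes on Insr differed between the diets by -0.40 in the limma interaction, which was tested and passed only without adjustment.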

How the results depend on the processing

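The count of called members was recomputed under each alternative, and it held within 1.5 times the main count in 132 of 181 cases. Many of these cases were 0 beside 0, as in diabetes against control and diabetes against HF diet, where no setting gave a call. In combination against diabetes and in the interaction, each with a main count of 1, the count moved in many settings. Without a fold limit it was 4 for combination against control (12.1%, beside 10.7% of all genes) and 5 against diabetes (15.2%, beside 9.48%). It was 6 against HF diet (18.2%, beside 14%) and 2 for the interaction (6.06%, beside 6.18%). At an adjusted p below 0.05 it was 0 throughout. Leaving out each heart in turn gave 0 to 1 called members for combination against control, 0 to 2 against diabetes, 0 to 4 against HF diet and 0 to 4 for the interaction. The share of all genes called was not computed for these leave-out fits. In combination against diabetes the count was 0 with the methods' t-test, with hearts of 1 code stem averaged and with the long-transcript mean as a covariate. For the interaction it was 0 with array weights, with code stems averaged and with the long-transcript covariate. In combination against HF diet the count was 1 in each of these settings, but not always for the same gene. Insr was called with probe sets fitted singly, by 1 of its 2 probe sets, and with the erythroid covariate. Igf1r was called with only the compared groups fitted. Leaving out combination heart 1 and control heart 1 together, chosen after seeing the data, gave 0 against diabetes and 0 for the interaction. Differences that turned their sign against control were Gsk3b (0.074), Insr (0.079) and Igf1r (0.15) with the long-transcript covariate. The cause of these changes was not tested. With the replicate block the count was 1 for HF diet against control, 0 for combination against diabetes, 1 against HF diet and 2 for the interaction, and Igf1r against control turned to 0.013. Same-numbered hearts showed no shared deviation at the median (-0.04 over 31 pairs, 9 of them correlated above 0.1). Single pairs ran from -0.41 to 0.50, so these values cannot decide whether some numbers share a block. No filter on dim probe sets and no slide block could be run, and signal over background is unknown.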
